A study of Medicago ruthenica with 3 samples.

Results

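The circadian clock genes described here are the transcripts of the Medicago ruthenica leaf degradome that carry the symbol LHY or whose annotation names LHY, a pseudo-response regulator (APRR), GIGANTEA, EARLY FLOWERING 3, an adagio protein or a REVEILLE factor. They were 7 of the 6912 transcripts in the table, with 17 of its 11390 entries. An entry lists 1 small RNA with 1 transcript, and the same pair can have more than 1 entry. M. ruthenica is a drought-tolerant perennial forage legume, and all plants were 4-week-old seedlings at the start of treatment, kept in 16 h of light and 8 h of dark. In the rewatered group (RW) water was withheld for 15 days and given back for 2 days, in the drought group (DS) it was withheld for 15 days until relative soil moisture was 20%, and the control group (CK) was watered throughout and kept above 80%. Each group had 1 degradome library, and whether it pooled several plants is not given in the sources used here, so no difference below has a replicate check, and a test between 2 libraries compares those libraries and not the conditions. Leaves of DS and CK were taken on the same day and those of RW 2 days later. The hour of sampling is not given in the sources used here, and hour and condition cannot be told apart in these 3 libraries.

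The plant clock is a loop of regulators that repress one another in turn through the day. In Arabidopsis, where the roles given here were worked out, LHY is a MYB transcription factor that peaks around dawn and holds down genes of the evening, the pseudo-response regulators follow through the day and repress LHY, and GIGANTEA acts in the evening with the adagio F-box proteins and links the clock to flowering. Many leaf transcripts, among them those for responses to light and to water shortage, are under its control. A degradome library is built from poly(A) RNA that has lost its cap, and each read starts at the exposed 5′ end. Such ends arise when a microRNA guides a cut, and also in other RNA decay, so reads measure RNA on its way to breakdown and not the amount of intact transcript. Whether any read below came from a guided cut was not tested. From these reads alone, less uncapped RNA per transcript and less transcript cannot be told apart. The paper also sequenced mRNA of RW, DS and CK leaves, which was not used here.

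The values are RPM, reads per 1000000 of the deposited table, and whole reads were recovered from them. 1 read was worth 33.8 RPM in RW, 30.6 RPM in DS and 40.3 RPM in CK, and the table held 29617, 32719 and 24790 reads in these libraries. The table lists only reads at sites paired with a small RNA, a small part of the degradome reads that the paper mapped. Reads elsewhere on a transcript are not counted here. The median transcript had 3 reads in all, and 1851 of 6912 (26.8%) were listed in every library. As a check of the tissue, 23 transcripts of Rubisco, its activase, the antenna and the photosystems held 1077 reads in RW, 1919 in DS and 1041 in CK, and no leghemoglobin, a protein of root nodules, was listed. The sum was highest in DS, but of 11 of these transcripts tested in DS vs. CK 5 were lower and 1 higher, with a median of -1.08 on the log2 scale. Of transcripts with at least 10 reads over the 2 libraries compared, the exact binomial test with Benjamini-Hochberg adjustment called 187 of 928 (20.2%) in DS vs. CK, 192 of 1045 (18.4%) in RW vs. DS and 119 of 893 (13.3%) in RW vs. CK. The called transcripts were higher in the first-named library in 54.5%, 54.2% and 52.9% of cases. These shares moved to 81.1%, 61.3% and 90.3% when mapped reads set the scale, and to 76.8%, 44.1% and 76.7% without scaling.

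Among the clock genes LHY stood apart by its reads. LHY (TRINITY_DN25317_c1_g1) was 1 of 2 clock transcripts with at least 10 reads, and its total of 39 was more than that of 95.3% of all transcripts. LHY was selected on its reads in DS and CK, and the others were matched by annotation with earlier results of these data known. The values of LHY are therefore given as a description with no test. LHY had 8 reads in RW, 30 in DS and 1 in CK, which is 270.1, 917 and 40.3 RPM. The DS library was thus the high one, with the CK library at a single read and RW between them. The ratio of RPM was 22.7 in DS/CK (exact 95% interval 3.78 to 927), 0.295 in RW/DS (0.117 to 0.658) and 6.70 in RW/CK (0.898 to 297). With 9 reads over RW and CK, LHY was below the minimum of 10 reads in that comparison. Intervals here cover counting error only, since 1 library per condition gives no spread between libraries. The sources used here name no molecular identifiers. Copies made in amplification may each be counted, and the intervals may then be too narrow.

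LHY was selected on its reads in DS and CK, so its place in the whole table on these values follows from that choice. The ranks given here only describe that place. In all 147 transcripts had at least 30 reads in DS, LHY included, and 3590 had at least 1 read in CK. The only transcript other than LHY with at least 30 reads in DS and at most 1 in CK was TRINITY_DN15960_c0_g1, annotated as mitogen-activated protein kinase kinase kinase 18, with 0 reads in RW, 39 in DS and 0 in CK. It was named after its values were seen. With 1 read added to each count, LHY stood at 3.55 in DS/CK on the log2 scale and 11 of 928 transcripts, LHY included, were at or above it. In the whole comparison 258 of 928 transcripts (27.8%) were at least 2-fold higher in DS and 102 (11.0%) passed the test as higher. In RW/DS LHY stood at -1.64 on the same scale, and 98 of 1045 transcripts were at or below it. There 212 (20.3%) were at least 2-fold lower in RW and 88 (8.42%) passed as lower.

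**Figure D1:**
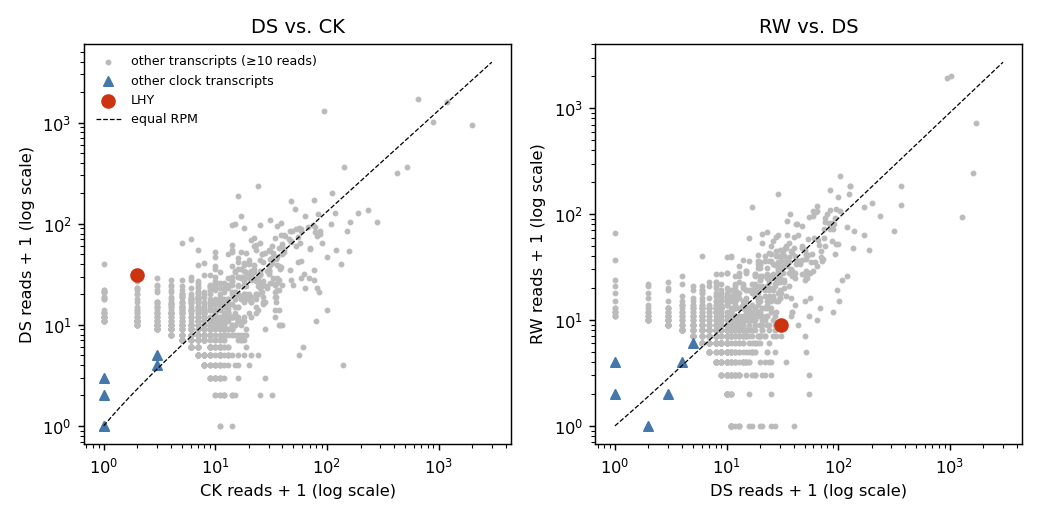
Reads per transcript, with 1 read added, on log axes for DS (vertical) against CK (horizontal) and for RW (vertical) against DS (horizontal). Grey points are transcripts with at least 10 reads over both libraries, triangles the other 6 clock transcripts, the red point LHY (8 reads in RW, 30 in DS and 1 in CK) and the dashed line equal RPM. LHY lies far above the line in DS vs. CK and below it in RW vs. DS, and the triangles sit at the shallow end of the table.

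The reads of LHY were spread over 5 entries with 4 small RNAs, and each entry had more reads in DS than in RW or in CK. The 2 deepest entries were both listed with ppe-MIR169i-p5_2ss17GT19TG, a small RNA named after a peach precursor of the miR169 family, a family best known for its NF-YA transcription factor targets. The first of them had 4 reads in RW, 12 in DS and 1 in CK (9.09 in DS/CK, 1.35 to 389). The second had 3 reads in RW, 10 in DS and 0 in CK. Against a floor of 3 reads in CK it was 2.53-fold higher in DS. The exact 95% interval for 10 against 0 reads began at 1.70. An entry with mtr-miR1510a-3p_1ss1CA had 1 read in RW, 5 in DS and 0 in CK. miR1510 is known in legumes for targets among immune receptor genes. The entry with lja-MIR7539-p3_1ss8TA had 2 reads, and that with mtr-miR2111a-5p 1 read, in DS only, and each had 0 in RW and in CK. Listed entries thus numbered 3 in RW, 5 in DS and 1 in CK. By the deepest entry alone the ratio in RW/DS was 0.368 (0.0866 to 1.22). If 1 read was assigned to more than 1 of these entries, the sum counts it each time, and read positions that would show this were not used here.

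**Figure D2:**
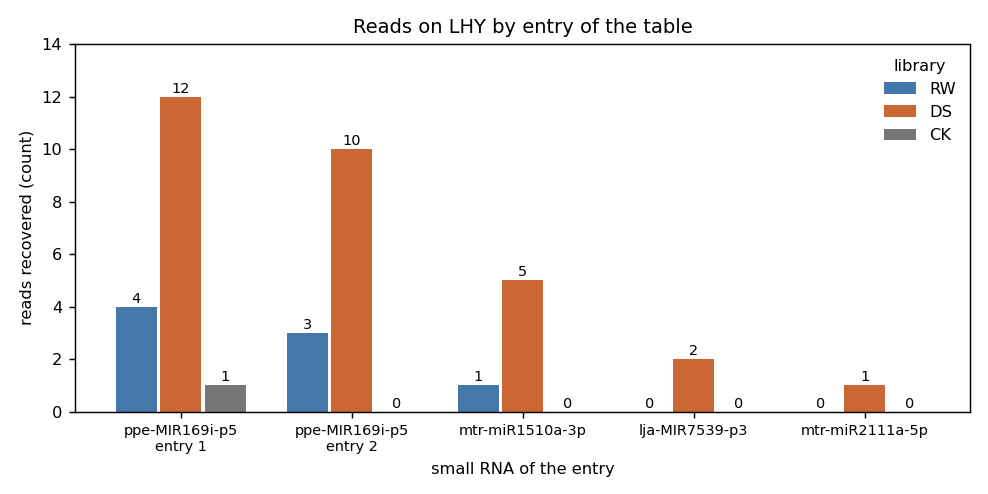
Whole reads recovered on LHY (vertical axis) for each of its 5 table entries, named by small RNA, with bars for RW, DS and CK and the read number above each bar. The DS bar is the tallest in every entry, at 12, 10, 5, 2 and 1 reads.

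The small RNA with most of these reads was listed widely. ppe-MIR169i-p5_2ss17GT19TG was paired with 2120 transcripts and held 5187 reads in RW, 7024 in DS and 3763 in CK. The paper made a shorter list of targets by a limit on mismatched bases, and that limit was not applied here. The pairings, those on LHY included, are therefore not a count of targets. LHY took 7 of these reads in RW, 22 in DS and 1 in CK, which is 0.135%, 0.313% and 0.0266%. In DS 38 of the 2120 transcripts, LHY included, had at least 22 reads with it. Over its transcripts outside the clock genes the ratio was 1.41 in DS/CK (1.36 to 1.47), 0.817 in RW/DS (0.788 to 0.847) and 1.15 in RW/CK (1.10 to 1.20). Degradome reads listed with this small RNA thus moved in the same direction as LHY, by less. They are reads on paired transcripts and do not measure the small RNA itself, and its part in the result was not tested. By reads listed with it alone, 215 transcripts, LHY included, had at least 10 reads over DS and CK. Of these, 71 were at least 2-fold higher in DS. In the whole table, where reads were summed over all entries of a transcript, 258 of 928 (27.8%) were, so the measures differ. On transcripts outside the clock genes, reads listed with mtr-miR1510a-3p_1ss1CA stood at 0.951 in DS/CK (0.637 to 1.43). Those with mtr-miR2111a-5p stood at 1.32 (0.928 to 1.88) and those with lja-MIR7539-p3_1ss8TA at 1.05 (0.905 to 1.22), and all these intervals included 1. In RW/DS and RW/CK, reads listed with mtr-miR2111a-5p stood at 1.37 (1.03 to 1.82) and 1.80 (1.29 to 2.54). These reads were thus higher in RW than in DS, opposite to LHY. The intervals for reads with mtr-miR1510a-3p_1ss1CA and lja-MIR7539-p3_1ss8TA included 1 in both.

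The REVEILLE factors, MYB proteins of the same family as LHY, were listed at low depth. RVE7 (TRINITY_DN24728_c2_g1), whose Arabidopsis namesake is itself expressed in a daily rhythm, had 3 reads in RW, 3 in DS and 2 in CK, or 101 RPM, 91.7 RPM and 80.7 RPM. Its ratio was 1.14 in DS/CK (0.130 to 13.6), 1.10 in RW/DS (0.148 to 8.25) and 1.26 in RW/CK (0.144 to 15.0). The 3 libraries were within 1 read of each other, and the intervals were too wide to show whether RVE7 differed. All its entries were listed with products of the soybean precursor gma-MIR1527, 3 in number. RVE5 (TRINITY_DN23618_c0_g1) had a single read, in DS, listed with ppe-MIR169i-p5_2ss17GT19TG.

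The only daytime regulator of the pseudo-response family was TRINITY_DN22738_c0_g1, which carries the symbol APRR5 but is annotated as APRR9. It had 3 reads in RW and 0 in DS and in CK, all with csi-miR167c-3p_L+2R-2. It had 101 RPM in RW (exact 95% Poisson interval 20.9 to 296), and 0 reads allow up to 91.7 RPM in DS and 121 RPM in CK, so no difference was detectable at this depth. GIGANTEA (GI, TRINITY_DN25177_c1_g1) had 1 read in RW, 2 in DS and 0 in CK. Its DS reads were listed with the same small RNA as APRR5.

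APRR2 shares the receiver-like domain of the pseudo-response regulators but is no core clock gene, and in tomato it is known for its part in fruit pigment. TRINITY_DN25204_c1_g1, the deeper of 2 APRR2 transcripts and the other clock transcript with at least 10 reads, had 5 reads in RW, 4 in DS and 2 in CK, or 169, 122 and 80.7 RPM. The ratio was 1.52 in DS/CK (0.217 to 16.8), 1.38 in RW/DS (0.297 to 6.96) and 2.09 in RW/CK (0.343 to 22.0), with all 3 intervals around 1. Its reads with ppe-MIR169i-p5_2ss17GT19TG numbered 4 in RW, 0 in DS and 1 in CK, so DS had none where LHY had 22. The second APRR2 transcript, TRINITY_DN25307_c0_g1, had 1 read, in RW. No transcript was annotated as EARLY FLOWERING 3, a part of the evening complex, or as an adagio protein.

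**Figure D3:**
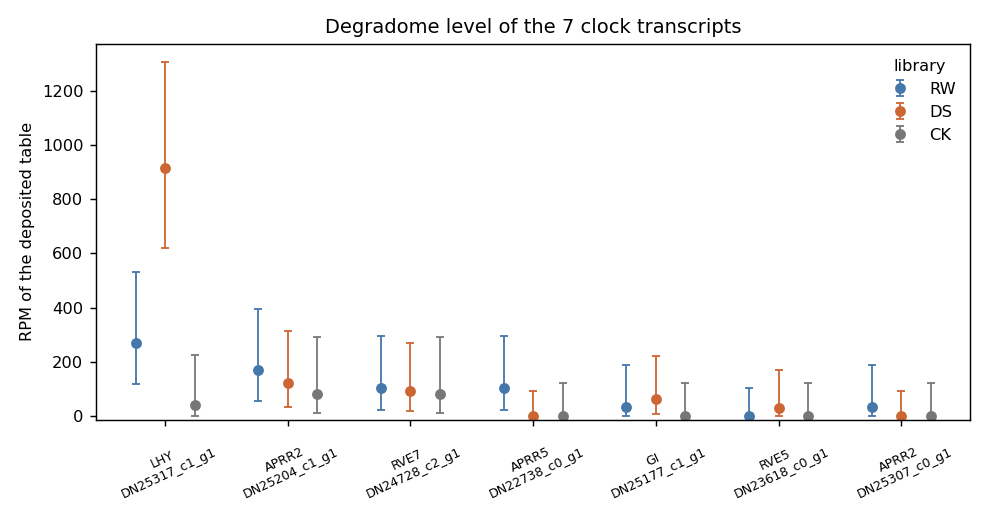
RPM of the deposited table (vertical axis) for the 7 clock transcripts in RW, DS and CK, 1 library each, with exact 95% Poisson intervals of the read number, which cover counting error only, and for 0 reads a bar up to 3 reads. LHY in DS, at 917 RPM, lies above all other points, and for the other 6 transcripts the intervals of the 3 libraries overlap.

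Summed over the 7 transcripts, the clock genes had 21 reads in RW, 40 in DS and 5 in CK. These were 0.0709% (exact Clopper-Pearson 95% interval 0.0439 to 0.108), 0.122% (0.0874 to 0.166) and 0.0202% (0.00655 to 0.0471) of the table. The summed ratio was 6.06 in DS/CK (2.39 to 19.7), 0.580 in RW/DS (0.325 to 1.01) and 3.52 in RW/CK (1.29 to 11.9). LHY held 38.1% of the clock reads in RW, 75% in DS and 20% in CK, and it decided the order of the libraries. Without it the sum was 13 reads in RW, 10 in DS and 4 in CK, at 1.89 in DS/CK (0.546 to 8.27), 1.44 in RW/DS (0.582 to 3.66) and 2.72 in RW/CK (0.840 to 11.5), and all 3 intervals included 1. Of the 6 clock transcripts other than LHY, none had 10 reads over the 2 libraries of any comparison, so none was tested. A total of 6 clock transcripts were listed in RW, 5 in DS and 3 in CK, and 3 were listed in all 3 libraries.

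The transcripts whose pattern was most like that of LHY were found by the distance between their shares of RPM over the 3 libraries, among 688 transcripts with at least 20 reads. LHY had 22.0% of its RPM in RW, 74.7% in DS and 3.29% in CK. The nearest was a homeobox-leucine zipper transcription factor (TRINITY_DN23754_c2_g1, symbol ATHB-16, annotated as ATHB-6), with 6 reads in RW, 21 in DS and 1 in CK (distance 0.0266). A NAC transcription factor-like transcript (TRINITY_DN25005_c1_g1) had 4, 16 and 1 reads in RW, DS and CK. An unknown protein (TRINITY_DN25221_c0_g4) had 5, 18 and 0, and the ubiquitin ligase RDUF2 (TRINITY_DN15362_c0_g3) had 6, 21 and 0. TAF1 (TRINITY_DN26094_c0_g1), a subunit of the general transcription factor TFIID, had 6, 19 and 1. These 5 transcripts share with LHY most listed reads in DS and almost none in CK, and 11 of the 688 lay within a distance of 0.1. The likeness rests on 3 values per transcript and is a description.

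Further clock genes were matched on the names of other known clock components. The 8 transcripts found had 14 reads in RW, 11 in DS and 5 in CK, and none had 10 reads in all. XCT (TRINITY_DN20868_c0_g1), which in Arabidopsis sets the pace of the clock, was the deepest, with 4 reads in RW, 3 in DS and 2 in CK. The rest were 3 transcripts of TIME FOR COFFEE, 3 topless-related corepressors and LNK2, a partner of REVEILLE factors in Arabidopsis. The summed ratio of the 8 was 1.67 in DS/CK (0.534 to 6.12), 1.41 in RW/DS (0.593 to 3.42) and 2.34 in RW/CK (0.798 to 8.31), with all intervals around 1.

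Light receptors and their signalling partners, only some of which set the clock each day, were listed with 23 transcripts. They included 1 helicase named PIF1 that matched by its name only, with 2 reads. Together they had 67 reads in RW, 104 in DS and 48 in CK. The summed ratio was 1.64 in DS/CK (1.16 to 2.36), 0.712 in RW/DS (0.516 to 0.977) and 1.17 in RW/CK (0.795 to 1.73). The intervals of DS/CK and RW/DS excluded 1, in the direction of LHY. These sums include COP1-interactive protein 1, described below, with 12 reads in RW, 21 in DS and 4 in CK. Whether the intervals exclude 1 without it was not tested. Of 5 tested in DS vs. CK 1 was higher, none lower and 4 did not pass, with a median of 0.28 on the log2 scale beside 0.09 for all transcripts tested. In the whole comparison 11.0% were higher and 9.16% lower. The 1 that rose was COP1-interactive protein 1 (TRINITY_DN25860_c0_g1), named for its binding to the ubiquitin ligase COP1. It had 12 reads in RW, 21 in DS and 4 in CK (3.98 in DS/CK, 1.34 to 15.9, adjusted p = 0.038, exact binomial test). This call ended with a minimum of 5 reads (adjusted p = 0.066, exact binomial test) and with the deepest entry alone (adjusted p = 0.722, exact binomial test). In RW vs. DS 4 were tested and none passed, with a median of -0.24 beside 0.07, where 9.95% of all transcripts were higher and 8.42% lower.

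In RW vs. CK 1 of 5 light transcripts was lower, none higher and 4 did not pass, with a median of 0.33 beside 0.11 for all, of which 7.05% were higher and 6.27% lower. Phototropin-2 (PHOT2, TRINITY_DN26214_c1_g1), a blue light receptor of chloroplast movement, fell to 1 read in RW, against 10 in CK, with 4 in DS (0.0837 in RW/CK, 0.00193 to 0.588, adjusted p = 0.035, exact binomial test). That call ended with mapped reads as scaling (adjusted p = 0.091, exact binomial test), without scaling (adjusted p = 0.078, exact binomial test) and with a minimum of 5 reads (adjusted p = 0.065, exact binomial test). The blue light receptor CRY1 (TRINITY_DN24675_c0_g2) had 13 reads in RW, 13 in DS and 4 in CK and did not pass. PIF1 (TRINITY_DN25063_c1_g1), a bHLH factor that phytochromes act on, had 23 in RW, 19 in DS and 15 in CK. PIF4 (TRINITY_DN24527_c0_g2), of the same family, had 4 in RW, 15 in DS and 9 in CK, and these did not pass either.

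The photoperiod and flowering list, mainly CONSTANS-like zinc finger proteins that lie downstream of the clock, held 15 transcripts with 120 reads in RW, 143 in DS and 118 in CK. None of its 4 tested members passed in DS vs. CK, none of 4 in RW vs. DS and none of 3 in RW vs. CK, and the medians were -0.20, -0.11 and -0.26 on the log2 scale, beside 0.09, 0.07 and 0.11 for all transcripts tested. Over all transcripts 20.2%, 18.4% and 13.3% were called in these comparisons, so with 3 or 4 tested members a count of 0 is close to the whole table. The summed ratio of the list was 0.918 in DS/CK (0.715 to 1.18), 0.927 in RW/DS (0.721 to 1.19) and 0.851 in RW/CK (0.655 to 1.11). COL16 (TRINITY_DN18471_c0_g1) was the deepest, with 82 reads in RW, 82 in DS and 78 in CK (0.797 in DS/CK, 0.577 to 1.10). Its 3 libraries were close, in contrast to LHY. CONSTANS-LIKE 4 (TRINITY_DN20124_c0_g1) had 5 reads in RW, 19 in DS and 4 in CK, with DS the high library as in LHY, but it did not pass in DS vs. CK (3.60, 1.20 to 14.5, adjusted p = 0.077, exact binomial test) or in RW vs. DS (0.291, 0.0848 to 0.805, adjusted p = 0.062, exact binomial test). COL5 (TRINITY_DN18676_c0_g1) had 16 reads in RW, 23 in DS and 18 in CK. A second COL16 transcript (TRINITY_DN18481_c0_g1) had 10 in RW, 5 in DS and 10 in CK.

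**Figure D4:**
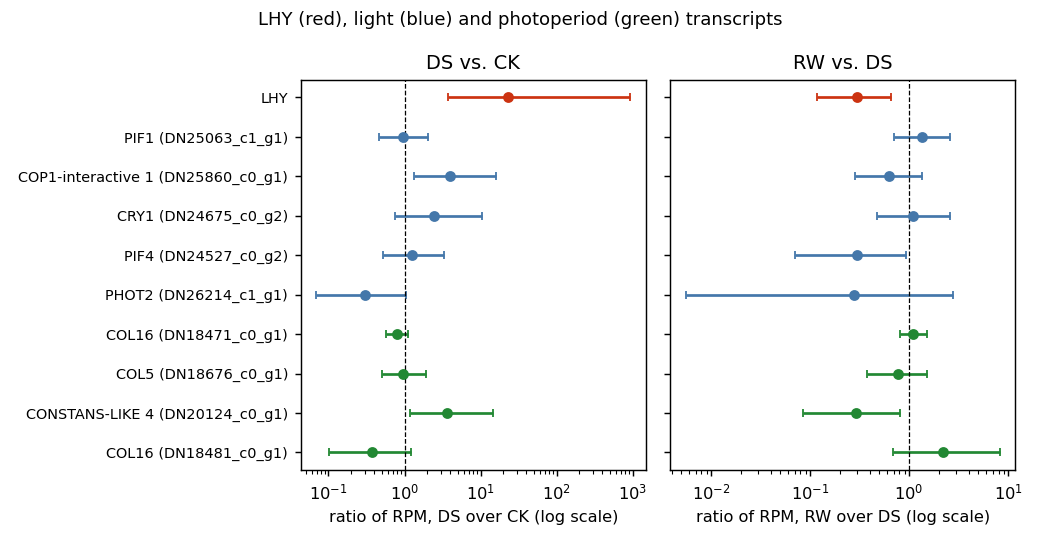
Ratios of RPM on log axes with exact 95% intervals, DS over CK and RW over DS, for LHY and for the light (blue) and photoperiod (green) transcripts with at least 10 reads. LHY stands at 22.7 in DS/CK and 0.295 in RW/DS, COP1-interactive protein 1 at 3.98 and CONSTANS-LIKE 4 at 3.60 in DS/CK, and the deepest COL16 transcript at 0.797, with the dashed line marking equal RPM.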

How the data were processed

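Degradome libraries of CK, DS and RW leaves, 1 each, were sequenced by the authors and compared with their own Trinity assembly in ACGT101-DEG, a program built on CleaveLand4. The deposited table gives normalized counts as RPM of the table, so each library sums to about 1000000 over the listed entries. Division by the worth of 1 read gave whole reads, within 0.01 read, for 100% of values. Groups were taken from the treatment labels. Reads were summed per transcript. Ratios of RPM carry exact conditional 95% intervals, and a ratio against 0 reads uses a floor of 3 reads. The test was an exact binomial test (two-sided, conditional on the sum of both libraries, scaled by table totals) for all transcripts with at least 10 reads over the 2 libraries, with Benjamini-Hochberg adjustment over all of them (threshold 0.05). It was first tested on simulated Poisson counts with no added spread between libraries, so that check does not cover such spread. Medians of lists use a pseudocount of 1 read. The members and lists were chosen with earlier results of these data known. All clock transcripts are accounted for, those with at least 10 reads in full. Of the lists, members that passed a test are named with at most 4 others by depth. Alternatives were other scalings, minimum reads, and the deepest entry per transcript. No sequences of the small RNAs were used here. Python 3.11.15 and scipy 1.17.1 were used.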

Additional observations from a re-analysis of the deposited data

How the results depend on the processing

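The ratios of LHY kept their direction under mapped reads as scaling, no scaling, the median of ratios and the deepest entry of each transcript, and lay between 9.09 and 33.0 in DS/CK, between 0.267 and 0.368 in RW/DS and between 3.35 and 10.3 in RW/CK. LHY was selected on its reads in DS and CK, and these settings use the same reads. The kept direction is therefore a description and no independent check. The intervals of the deeper APRR2 transcript included 1 throughout, and its ratio turned below 1 with the deepest entry in RW/DS (0.552) and RW/CK (0.837). The summed ratio of the clock transcripts moved to 1.89 in DS/CK and 1.44 in RW/DS without LHY. In RW/DS its interval excluded 1 without scaling (0.294 to 0.912), with the median of ratios (0.298 to 0.925) and without APRR2 (0.234 to 0.862), and in RW/CK it included 1 with the deepest entry (0.811 to 17.1) and without LHY. The number of transcripts called in the whole table moved with mapped reads to 286 in DS vs. CK and 226 in RW vs. CK. A difference of at least 2-fold in place of the test gave 440 in DS vs. CK, 437 in RW vs. DS and 304 in RW vs. CK. The median of all transcripts tested in DS vs. CK was 0.09 by table totals, 0.62 with mapped reads and 0.49 without scaling, on the log2 scale. Of the 5 transcripts most like LHY, 4 were shared with a minimum of 10 reads and 4 with mapped reads. The adjusted p-values of the light transcripts were run under these settings after the data had been seen. No paired analysis was possible because each condition had 1 library. With 1 read in CK, the size of the LHY ratio against CK is limited by depth.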
